A study of Homo sapiens with 6 samples.

Results

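The strongest constitutive open loci of H1 human pluripotent stem cells were 3226 places in the genome where all 6 ATAC-seq libraries of the series had a summit among the top 10% of their own list by score. They are 2.62% of the 123131 loci formed from all summits, and 12.6% of the 25519 loci with a summit in all 6 libraries. A locus was a summit together with every other summit within 250 bp, starting from the summits of highest percentile by score. The score of a summit is the −log10 of its peak's q-value, and its percentile is its rank within its own library on a scale up to 100. The loci were chosen by these scores, so their height is a description and not a finding. What the choice did not use is the position of the loci relative to genes, their chromosomes and the sequence under them. The order of the loci within the chosen set in each library rests on the same percentiles as the choice, so it too is a description.

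ATAC-seq uses a transposase to cut open chromatin, and a summit is the place in a peak where the cuts are densest. The cells were H1, an established line of human embryonic stem cells, grown in mTeSR1 on Matrigel, infected with lentivirus carrying a short hairpin RNA and selected with puromycin. There were 2 libraries of shHNRNPU #1, 2 of shHNRNPU #2 and 2 of shLUC, a hairpin against luciferase that served as the control. All groups share the H1 background, the virus and the selection, and the labels do not say whether repeats are separate cultures, so p-values measure only the spread between these libraries. Each library lists 52168 to 63519 summits and no read counts, so depth is unknown and the knockdown cannot be read from these files. The labels call the cells pluripotent, and the files cannot test that beyond the open loci at pluripotency genes described further on.

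A promoter is the stretch of DNA around a gene's start where transcription is set up, and it is kept free of nucleosomes at active genes. Promoters of broadly used genes are mostly rich in CpG and are bound by factors such as SP1, NF-Y, NRF1 and ETS proteins, whereas distal elements are open in fewer cell types. HNRNPU, also called SAF-A, is an abundant nuclear protein that binds RNA and chromatin and belongs to the nuclear matrix, the question of the series. The genes of the 18S and 28S ribosomal RNAs are transcribed by RNA polymerase I from repeated arrays on the short arms of a few chromosomes.

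The promoters under the strongest loci at protein-coding genes show the letters that recur in the set. These 5 were taken from the 12 strongest members at a listed start, a choice made after the values were seen, to show promoters with several motifs and one with none of those searched. Sequences are from RefSeq on GRCh38.p14, 250 bases before to 50 after the start, 5′ to 3′ on the gene's strand, and capitals mark matches to the motifs named below. In all 5, the summits of all 6 libraries lay inside the printed window. PGK1 lies at chrX:78103998-78104297 on the plus strand, TFB1M at chr6:155314435-155314734 on the minus strand, COQ10B at chr2:197453302-197453601 on the plus strand, MSMO1 at chr4:165327419-165327718 on the plus strand, and RAB6A at chr11:73761025-73761324 on the minus strand.
PGK1: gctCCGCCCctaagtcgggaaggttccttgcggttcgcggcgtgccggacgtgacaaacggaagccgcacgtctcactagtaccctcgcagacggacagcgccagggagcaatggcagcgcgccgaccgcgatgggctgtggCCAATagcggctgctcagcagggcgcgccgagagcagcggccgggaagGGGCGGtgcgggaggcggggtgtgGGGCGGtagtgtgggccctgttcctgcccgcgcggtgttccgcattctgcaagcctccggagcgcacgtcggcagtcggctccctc
TFB1M: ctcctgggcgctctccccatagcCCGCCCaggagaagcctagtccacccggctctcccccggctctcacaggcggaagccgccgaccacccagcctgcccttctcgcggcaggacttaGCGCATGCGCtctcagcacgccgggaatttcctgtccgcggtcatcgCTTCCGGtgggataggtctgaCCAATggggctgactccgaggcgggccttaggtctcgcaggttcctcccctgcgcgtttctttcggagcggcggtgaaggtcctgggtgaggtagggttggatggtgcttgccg
COQ10B: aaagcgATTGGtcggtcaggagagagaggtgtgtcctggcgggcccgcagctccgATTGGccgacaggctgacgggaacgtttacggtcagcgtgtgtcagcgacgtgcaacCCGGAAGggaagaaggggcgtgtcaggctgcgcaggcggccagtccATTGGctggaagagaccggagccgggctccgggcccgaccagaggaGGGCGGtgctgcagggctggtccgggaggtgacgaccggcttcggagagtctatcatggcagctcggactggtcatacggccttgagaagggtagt
MSMO1: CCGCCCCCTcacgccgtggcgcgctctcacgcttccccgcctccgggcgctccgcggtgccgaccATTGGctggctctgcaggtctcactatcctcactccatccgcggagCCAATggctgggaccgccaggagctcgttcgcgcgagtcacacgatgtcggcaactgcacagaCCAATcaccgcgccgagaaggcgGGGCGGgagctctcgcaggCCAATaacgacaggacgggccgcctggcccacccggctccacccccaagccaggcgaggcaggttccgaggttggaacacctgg
RAB6A: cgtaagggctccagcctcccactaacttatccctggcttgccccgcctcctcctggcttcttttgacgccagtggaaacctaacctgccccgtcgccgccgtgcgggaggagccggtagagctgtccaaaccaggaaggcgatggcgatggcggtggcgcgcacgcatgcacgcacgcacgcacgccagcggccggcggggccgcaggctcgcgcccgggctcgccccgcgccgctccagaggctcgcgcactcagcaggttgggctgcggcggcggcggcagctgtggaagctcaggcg

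PGK1 encodes the glycolytic enzyme phosphoglycerate kinase, and its promoter held 3 GC boxes and 1 CCAAT box. TFB1M encodes a methyltransferase that modifies mitochondrial ribosomal RNA, and its promoter held 2 NRF1 matches, 1 ETS match, 1 GC box and 1 CCAAT box. The promoter of COQ10B, which encodes a coenzyme Q binding protein of mitochondria, held 3 CCAAT boxes, 1 ETS match and 1 GC box. That of MSMO1, an enzyme of cholesterol synthesis, held 4 CCAAT boxes, 2 GC boxes and 1 CTCF match that overlaps a GC box. RAB6A, a small GTPase of the Golgi, had 0 matches to any motif searched, with 71.7% G and C and 37 CpG pairs in its 300 bases. A match is a description of letters and not of a bound factor.

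Scores of the strongest loci at starts were high in every library. The PGK1 locus, on chromosome X at 78104075 and 173 bp upstream of the start, scored 195, 131, 123 and 172 in the libraries of shHNRNPU #1 repeats 1 and 2 and shHNRNPU #2 repeats 1 and 2, and 231 and 200 in shLUC repeats 1 and 2. The TFB1M locus scored 142, 142, 118 and 130 with shHNRNPU and 136 and 116 with shLUC. The COQ10B locus scored 138, 119, 98.9 and 103 with shHNRNPU and 120 and 103 with shLUC. At PGK1 both shLUC scores were above those of all 4 shHNRNPU libraries, whereas at TFB1M and COQ10B the groups overlapped. The cells carry a lentiviral vector whose sequence was not used here. Whether reads from the vector add to the score at PGK1 was not tested. The other starts described here belonged to BBS12, RWDD1, INTS4, MSMO1, RAB6A, RSU1, RMND1 and FAM72A with SRGAP2. FAM72A and SRGAP2 have near-identical copies, so their scores are uncertain. The lowest percentile over the 6 libraries was between 99.8 and 99.97 at these loci.

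**Figure D1:**
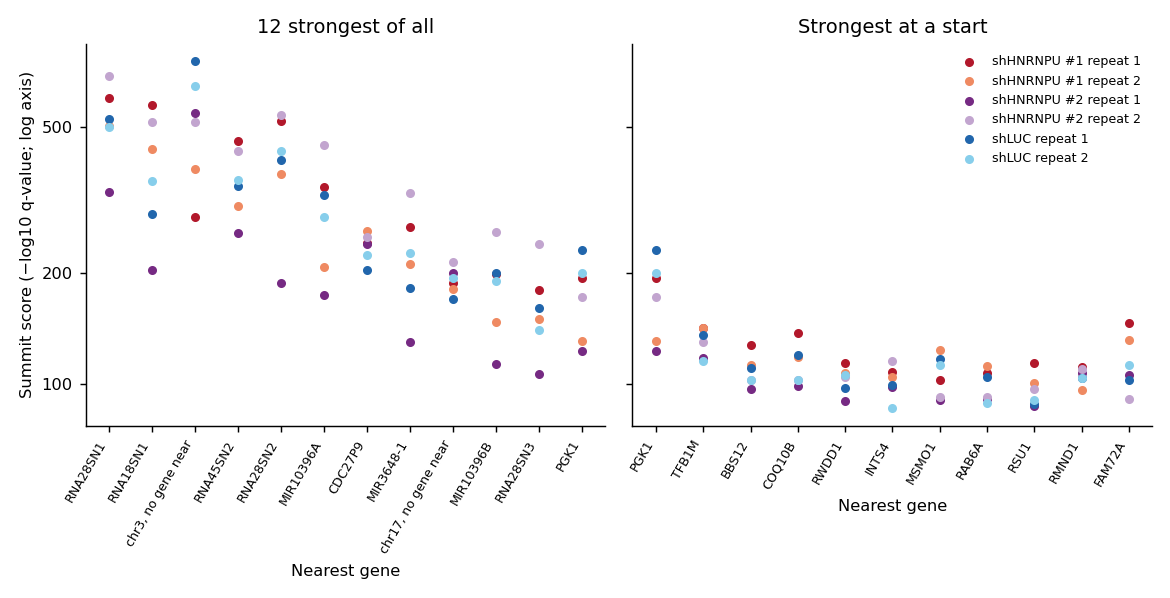
Scores of single loci in each of the 6 libraries, on a log axis of −log10 q-value, with one colour per library. The left panel holds the 12 strongest loci of all, named by the nearest gene, and the right panel 11 of the 12 strongest at a listed protein-coding start. Most loci on the left exceed those on the right, and shHNRNPU #2 repeat 1 has the lowest point at most of the loci on the left.

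The very strongest loci were not at protein-coding genes. Of the 12 loci with the highest lowest percentile, 11 lay over 300 kb from any protein-coding gene end, and the 12th was PGK1. Of the 11, 9 were on the short arm of chromosome 21, 8 of them within 20 kb of a ribosomal RNA gene. The locus at 8442363 of chromosome 21, in a ribosomal RNA gene and nearest to an end of RNA28SN1, a copy of the 28S rRNA gene, scored 598, 503, 333 and 688 in the 4 shHNRNPU libraries and 525 and 501 in the shLUC libraries. The locus at 8438778, also in a ribosomal RNA gene and nearest to an end of RNA18SN1, a copy of the 18S rRNA gene, scored 572, 434, 204 and 515 with shHNRNPU and 290 and 356 with shLUC. Neither separated the groups, and shHNRNPU #2 repeat 1 had the lowest score at both. Scores are not normalized between libraries, but these loci ranked at or near the top of every list, with percentiles of at least 99.99.

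In all, 12 members lay within 20 kb of a ribosomal RNA gene and 8 of these inside one. The remaining 2 of the 11 were on chromosome 3 at 93470571 and on chromosome 17 at 26603917, 373193 and 377775 bp from the nearest annotated gene. The one on chromosome 3 scored 285, 385, 544 and 516 with shHNRNPU and 753 and 645 with shLUC. Both control scores were above the other 4, but by percentile the groups did not separate, since shHNRNPU #2 repeat 1 and both shLUC libraries were each at 100. Ribosomal RNA genes are present in many near-identical copies that share reads, so the scores of these loci are uncertain. A total of 52 members were over 300 kb from a protein-coding gene end, 13 of them on chromosome 21 and 8 on chromosome 17. Repeated sequences were not marked or removed here. Whether these loci, with those on chromosomes 3 and 17 above, lie in repeats was not tested.

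Position relative to genes was measured next. Of the members, 2562 (79.4%) lay within 2000 bp of a protein-coding gene end, against 35.1% of the other 22293 loci in all 6 libraries and 20.8% of all loci. Within each library the same comparison was made between the summits of members and the library's remaining summits. The remaining summits near a gene end were 25.4%, 23.9%, 25.0% and 27.5% in the shHNRNPU libraries and 23.2% and 23.7% in the shLUC libraries, whereas member summits were at 79.4% ± 0.0325 (SD, n = 6). The remaining summits averaged 24.8% ± 1.57 (SD, n = 6), and the difference of 54.6 percentage points had the same direction in 6 of 6 libraries (two-sided exact sign-flip permutation test, p = 0.0312). That is the smallest p that 6 libraries allow. The loci are shared between libraries, so the test covers the spread between libraries only. The median distance to a gene end was 146 bp for members and 10322 bp for the other loci in all 6 libraries.

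The share near gene ends was larger in the upper bands of score. Among loci in all 6 libraries it was 17.6% where the lowest percentile was at most 10, 15.6% and 17.4% in the next 2 bands of 10, 29.8% between 50 and 60, 65.0% between 80 and 90, and 79.4% among members. Within the members it was 77.0% from 90 to 95, 82.2% from 95 to 98, 83.9% from 98 to 99, and 80.5% above 99. The last value belongs to 190 loci, of which 14.7% lay over 10000 bp from any gene end or listed start, beside 6.59% of the 273 loci from 98 to 99. Whether these far loci lie in repeated sequence was not tested.

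**Figure D2:**
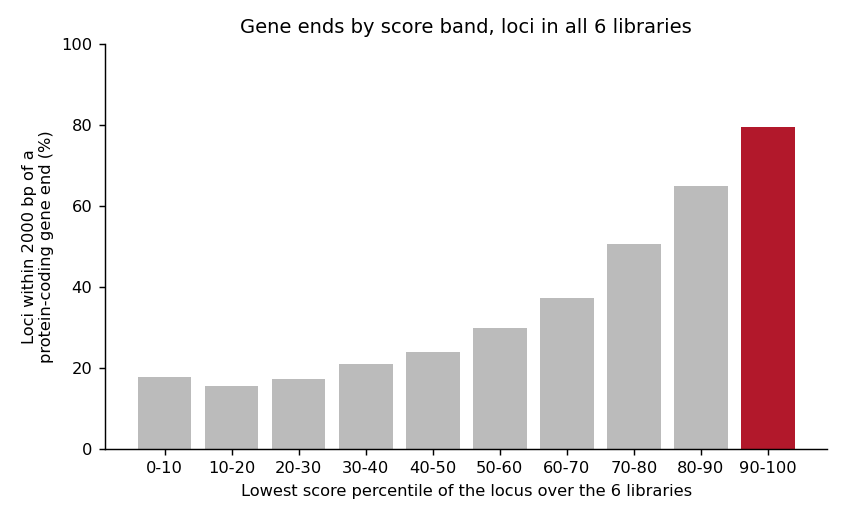
Share of loci within 2000 bp of a protein-coding gene end (percent, vertical axis) by the lowest score percentile of the locus over the 6 libraries (bands of 10, horizontal axis), for the 25519 loci in all 6 libraries. The bars are at 17.6%, 15.6% and 17.4% in the lowest 3 bands and climb from there to 79.4% in the members' band, drawn in red.

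Summits of members sat just upstream of starts. The RefSeq promoter table used here lists starts for 15843 of 20037 protein-coding genes and none on chromosome 8, so shares at starts are lower bounds. Off chromosome 8, 2296 of 3102 members (74.0%) were within 500 bp of a listed start. The median position was -106.5 bp from the start for members, with quartiles of -158 and -59 bp, and -50 bp for the other loci in all 6 libraries at starts. Upstream of the start lay 89.5% of the members and 69.0% of the others. Among loci at starts, 14.4% of members were at divergent starts, a pair of genes on opposite strands less than 1000 bp apart, beside 7.63% of the others. Of the 1362 such pairs in the table, 461 (33.8%) held a member.

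**Figure D3:**
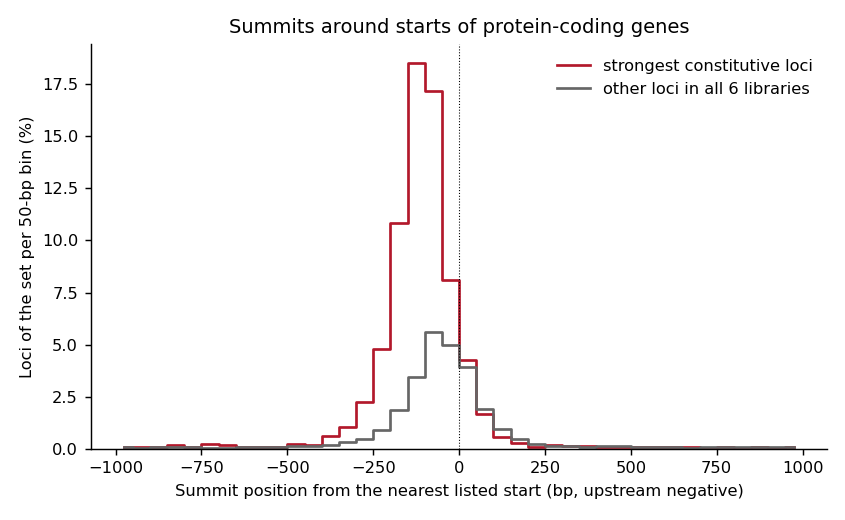
Position of the summit relative to the nearest listed protein-coding start (bp, upstream negative) against the share of loci of each set per 50-bp bin (percent), for members in red and for the other loci in all 6 libraries in grey. The red line peaks about 100 bp upstream of the start, with a median of -106.5 bp among loci within 500 bp, and the grey line peaks closer to the start, with a median of -50 bp.

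Not all members were at protein-coding genes. A total of 354 (11.0%) lay over 10000 bp from any protein-coding gene end and any listed start, against 47.0% of the other loci in all 6 libraries, and 40 of the 354 were within 500 bp of a listed start of another class of gene. By class of gene, a member lay within 500 bp of an end for 14.0% of protein-coding genes, 33 of 443 tRNA genes (7.45%), 8 of 154 snRNA genes (5.19%), 599 of 18303 lncRNA genes (3.27%), 48 of 1265 transcribed pseudogenes (3.79%) and 10 of 15580 other pseudogenes. Transfer and small nuclear RNA genes are short and in part transcribed by RNA polymerase III. At starts, 399 members were near both a protein-coding and a lncRNA start, and 94 were at a lncRNA start alone. Among the strongest members between 10 and 300 kb from a protein-coding gene end, listed after the values were seen, was one at RN7SL2, a gene of the signal recognition particle RNA, on chromosome 14 at 49862856. It scored 90.3, 95.9, 86.0 and 84.6 with shHNRNPU and 93.2 and 75.8 with shLUC, and the groups overlapped. RN7SL2 also has near-identical copies.

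Gene classes differed in how many of their genes had a member within 2000 bp of an end. The background was 3190 of 20037 protein-coding genes, 15.9%. Genes for HNRNP proteins and splicing factors, which process pre-mRNA, had a member at 26 of 61 genes (42.6%). Those of the nuclear matrix, the lamina, CTCF and cohesin, which shape nuclear architecture, had one at 9 of 22 (40.9%). Translation initiation factors stood at 21 of 56 (37.5%), cell cycle and replication genes at 13 of 35 (37.1%), respiratory chain genes at 31 of 103 (30.1%) and proteasome subunits at 14 of 48 (29.2%). Cytosolic ribosomal proteins had 18 of 80 (22.5%) and mitochondrial ribosomal proteins 17 of 77 (22.1%), although 76 and 71 of them had a locus in all 6 libraries. These counts are descriptions of lists chosen with results of these data known, and no test was run on them.

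**Figure D4:**
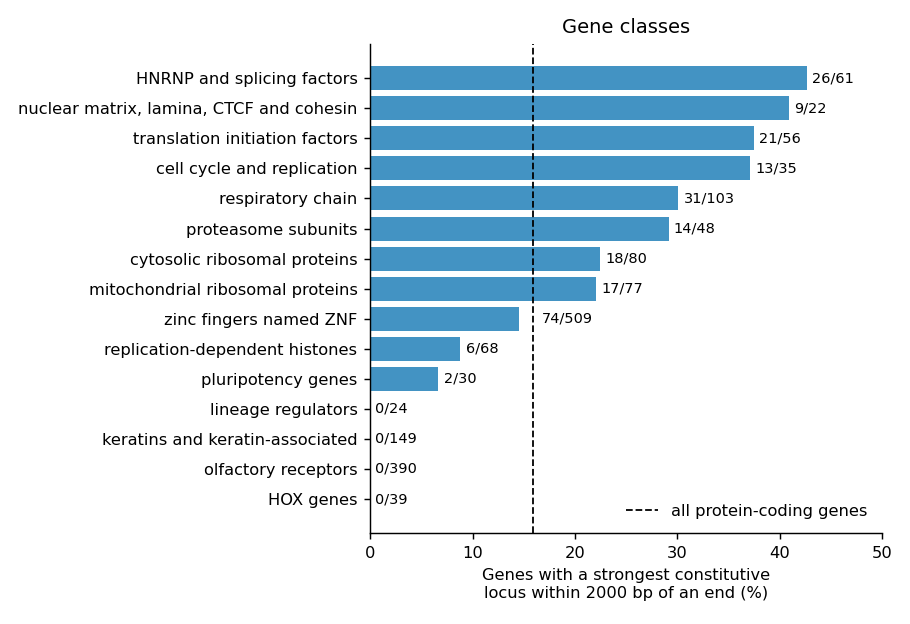
Share of the genes of 15 classes with a strongest constitutive locus within 2000 bp of an end (percent), with the count of genes beside each bar and the share over all protein-coding genes, 15.9%, as a dashed line. HNRNP and splicing genes are highest at 42.6%, and 4 classes of tissue- or lineage-restricted genes are at 0.

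Members at genes of these classes were chosen by their scores, and their levels varied within the top 10%. The locus of HNRNPD, an HNRNP protein that binds AU-rich RNA, scored 99.2, 93.3, 73.4 and 86.6 with shHNRNPU and 58.6 and 56.6 with shLUC, so the 4 shHNRNPU libraries lay above both controls. The locus of SF3B6, a subunit of the U2 snRNP, scored 64.6, 79.6, 64.8 and 67.5 with shHNRNPU and 79.3 and 72.7 with shLUC. The scores of SF3B6 overlap, but its percentiles were 98.3, 99.3, 99.2 and 98.6 with shHNRNPU, all below the 99.64 and 99.56 of shLUC. STAG1, a cohesin subunit, and NUMA1, a protein of the mitotic spindle and nuclear matrix, had lowest percentiles of 99.2 and 98.8.

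The other members of the architecture list were LMNB1, LMNA, SAFB with SAFB2 at a shared locus, RAD21, TOP2A and WAPL. CTCF, which marks domain boundaries, was not a member and had a lowest percentile of 85.7. HNRNPU itself was not a member either. Its start locus, on chromosome 1 at 244864614 and 71 bp upstream of the start, had scores of 47.5, 28.7, 41.7 and 37.9 with shHNRNPU and 31.9 and 37.1 with shLUC, and its lowest percentile of 88.6 came from shHNRNPU #1 repeat 2. The groups overlapped at this locus.

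Some named members of the other classes lay at loci shared with a neighbouring gene. The locus of EIF2A, a translation initiation factor, lies 129 bp from the start of SERP1 and scored 121, 92.2, 88.3 and 95.6 with shHNRNPU and 92.0 and 99.2 with shLUC. The proteasome ATPase gene PSMC6 shares its locus with STYX, with scores of 96.1, 98.4, 79.2 and 90.2 against 86.9 and 80.3. The cyclin-dependent kinase gene CDK2 shares its locus with RAB5B, with scores of 93.2, 103, 70.9 and 91.8 against 78.6 and 101. The groups overlapped at each of these 3 loci. ATP5MC1, a subunit of ATP synthase, CCNB1, the mitotic cyclin B1, and ZNF143, an activator of promoters, had lowest percentiles of 99.6, 99.3 and 99.5. The ribosomal protein genes with the strongest members were RPS12 and RPS3A, at 98.03 and 97.85.

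Lineage-restricted classes had few or none. Members were absent from the ends of 39 HOX genes, 24 lineage regulators, 390 olfactory receptor genes and 149 keratin and keratin-associated genes, of which 12, 12, 6 and 9 had a weaker locus in all 6 libraries. Replication-dependent histone genes had 6 of 68 (8.82%), at 3 loci that each lie near an H2AC and an H2BC gene. Zinc finger genes named ZNF had 74 of 509 (14.5%), close to the background.

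Of the 31 pluripotency symbols, 30 were in the table, and 23 of these had a locus in all 6 libraries, but 2 of 30 (6.67%) had a member. One was TERF1, a telomere-binding protein, with a lowest percentile of 98.6, and the other was EPCAM, a surface adhesion protein of embryonic stem cells, with 94.3. The EPCAM locus scored 53.8, 47.7, 36.5 and 43.7 with shHNRNPU and 44.8 and 47.7 with shLUC, which overlap. POU5F1, the gene of OCT4, came close, with a lowest percentile of 87.0. SOX2 was at 49.4 and NANOG at 38.8, within loci found in all 6 libraries. The best loci of DPPA2, DNMT3B and CDH1 were at 83.4, 82.2 and 80.7, whereas those of GDF3 and CD9 were at 32.1 and 17.0. DPPA4, FGF4, LEFTY1, OTX2, ZIC2, LIN28B and NODAL had no locus in all 6 libraries.

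The sequence of promoters with a member was compared with other promoters over the RefSeq window of 300 bases. Matches on either strand were counted for 10 motifs. The CCAAT box is bound by NF-Y. The GC box of the SP and KLF factors was searched as GGGCGG. NRF1 was searched as GCATGCGC, and the site of ETS proteins as CCGGAAG. The TATA box near some starts was searched as TATAAA. The E-box of MYC and USF was searched as CACGTG, and the site of CREB and ATF proteins as TGACGTCA. YY1 was searched as AAGATGG, the activator ZNF143 as ACTACAA, and part of the CTCF motif as AGGGGGC. Overlapping motifs were each counted. One start per gene, the first listed, was used, giving 2663 promoters within 2000 bp of a member, 6354 within that distance of another locus in all 6 libraries, 6826 with neither, and 15843 in all. A CCAAT box was in 54.3% of promoters with a member, 32.7% of those with another locus, 32.8% of those with neither and 36.4% of all. At least 2 CCAAT boxes were in 28.1%, 10.1%, 8.73% and 12.5% of them.

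Composition was compared as well, and it did not follow the CCAAT shares. The median ratio of observed to expected CpG was 0.865 with a member, 0.841 with another locus and 0.383 with neither. Among promoters with a ratio above 0.6, the CCAAT box was in 54.1%, 31.2% and 26.0% of these 3 sets, so the contrast between members and other loci was as wide there. GC boxes were in 79.8% with a member, 70.2% with another locus, 39.3% with neither and 58.5% of all. The NRF1 match was in 8.22%, 5.10%, 1.93% and 4.26%, and the ZNF143 match in 5.75%, 3.34%, 1.95% and 3.14% of the same sets. The ETS match did not set members apart from other loci, with 20.2% and 20.4%, and both exceeded the 6.15% of promoters with neither. TATA boxes were rarer, with 3.53% with a member, 5.78% with another locus, 15.6% with neither and 9.63% of all. E-box, CREB, YY1 and CTCF matches were in 11.6%, 4.28%, 8.56% and 23.02% of promoters with a member and in 8.88%, 2.59%, 6.40% and 18.0% of all.

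Chromosomes were unevenly represented. Members were 12.6% of loci in all 6 libraries, 19.9% on chromosome 21, 16.7% on chromosome 14, 14.9% on chromosomes 17 and 19, 8.06% on chromosome 13 and 3.86% on chromosome X. On chromosome X, 24 of 622 such loci were members, or 2.83 per 100 protein-coding genes, beside 21.7 per 100 genes on chromosome 14. Scores were not adjusted for the number of copies of a chromosome in these cells, and its part in these shares was not tested. Of the 45 members on chromosome 21, 12 were those within 20 kb of a ribosomal RNA gene. Chromosome 19, the densest in genes, held 5.95% of members, against 3.95%, 3.91%, 3.73% and 4.16% of the remaining summits of the shHNRNPU libraries and 3.26% and 3.45% of those of shLUC. The remaining summits averaged 3.74% ± 0.337 (SD, n = 6), and the difference of 2.21 points was positive in 6 of 6 libraries (two-sided exact sign-flip permutation test, p = 0.0312). The members are the same loci in every library, so their share is fixed and the 6 comparisons are not separate results. The test covers only the spread of the remaining summits between libraries. Against the other loci in all 6 libraries the contrast was narrower, since 4.93% of those were on chromosome 19. Relative to its genes chromosome 19 was not rich in members, with 13.2 per 100 protein-coding genes.

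Membership requires the top 10% of every library, and the lists of top 10% summits themselves differed. Of the 9768 loci in the top 10% of at least 1 library, 3226 (33.0%) were in that of all 6 and 2354 in that of 1 only. The lowest score of a top 10% was between 26.5 and 32.8, members made up 50.8% to 61.8% of it, and their median score was 46.0 to 56.3. The summits of the top 10% within 2000 bp of a gene end were 75.4%, 74.2%, 73.5% and 75.6% in the shHNRNPU libraries and 66.1% and 67.8% in shLUC. All 4 shHNRNPU libraries thus lay above both controls, at 74.7% ± 1.01 (SD, n = 4) against 67.0% ± 1.20 (SD, n = 2). The difference of 7.70 points was the highest of the 15 choices of 2 control libraries, the next being 3.45 (two-sided exact permutation test, p = 0.133). With 4 libraries against 2, this is the smallest two-sided p, so no such test could reach 0.05. The summits outside the members, which include the rest of the top 10%, also did not overlap between the groups. Near a gene end were 25.4%, 23.9%, 25.0% and 27.5% of them with shHNRNPU and 23.2% and 23.7% with shLUC. Whether the difference is particular to the top 10% was not tested.

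Loci that were in the top 10% on one side only had different positions. Of the 124 loci in the top 10% of all 4 shHNRNPU libraries and of neither shLUC library, 81.5% were near a gene end. Of the 324 in the top 10% of both shLUC libraries and of no shHNRNPU library, 21.9% were, and 62.0% lay over 10000 bp from a gene end or start. Over all loci, 20.8% were near a gene end and 62.4% lay over 10000 bp away. Both counts are out of the 9768 loci in the top 10% of at least 1 library. The first filter asks for 4 libraries in the top 10% and the second only for both shLUC libraries, so the counts are not comparable. Each set holds loci picked for being high on its side. This split was looked at after the values were seen, and was not tested.

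The share of the top 10% on each chromosome also differed. The shHNRNPU and shLUC libraries did not overlap on 15 of 24 chromosomes, with shHNRNPU higher on 6 and lower on 9. The same count over all summits was not made. The shares of a library add up to a whole, so the chromosomes are not separate results. The widest gap was on chromosome 19, with 7.31% ± 0.226 (SD, n = 4) against 5.50% ± 0.419 (SD, n = 2), a difference of 1.81 points. For each of the 15 the exact permutation test gave p = 0.133 (two-sided), or 0.213 once adjusted by Benjamini-Hochberg for 24 chromosomes. Chromosomes 16, 17 and 22 were higher as well, by 0.490, 0.606 and 0.397 points, and chromosome 4 was lower, with a difference of -0.664 points. On chromosome 19 the summits outside the members did not overlap between the groups either. Their shares were 3.95%, 3.91%, 3.73% and 4.16% with shHNRNPU and 3.26% and 3.45% with shLUC.

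The order of the members by percentile was compared between libraries by Spearman's rho over the 3226 loci, as a description. The mean was 0.706 for the repeats of one shHNRNPU hairpin, 0.703 for the shLUC repeats, 0.692 for pairs of shHNRNPU #1 and #2, and 0.619 for the 8 pairs across shHNRNPU and shLUC, which lay between 0.556 and 0.662. Pairs on the same side averaged 0.697 and exceeded pairs across sides by 0.0784. This was the highest of the 15 choices of 2 control libraries, the next being 0.0210 (exact permutation test, one-sided p = 0.0667, the smallest it can give). Over all 25519 loci in all 6 libraries the same means were 0.847, 0.850, 0.848 and 0.787, again lowest across sides. The 2 different hairpins against HNRNPU thus ordered the members almost as alike as repeats of one hairpin did.

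The differences were small for most members. The mean percentile in shHNRNPU libraries minus that in shLUC libraries had a median of -0.0571 points over the members, quartiles of -0.937 and 0.818, and a range from -6.55 to 6.97, and 1762 members (54.6%) moved by less than 1 point. Over all loci in all 6 libraries the median was -0.291 and the quartiles were -6.33 and 5.18. The scale is bounded at 100 and members start at 90, which limits their range. Members with all 4 shHNRNPU libraries above both shLUC libraries were 325 (10.1%), beside 10.9% of all loci in all 6 libraries. Those below were 355 (11.0%), beside 13.9%. Both shares are near or under their backgrounds and are thus no result about the members.

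The 2 directions differed by position. Of 2378 members within 500 bp of a gene end, 10.1% were higher and 9.84% lower with shHNRNPU, whereas of 354 members over 10000 bp from gene ends and starts, 9.04% were higher and 18.1% lower. The other loci in all 6 libraries had 15.3% higher and 6.79% lower at gene ends, and 8.21% higher and 19.4% lower far from them. So the far members went lower about as often as other far loci, and no test was run on these shares.

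Among the members, the 5 widest gaps upward were near TRIM28, GPI, BMPR1A, ZNF771 and NADK. The locus of TRIM28, a corepressor that silences retrotransposons through zinc finger proteins, on chromosome 19 at 58544207, had percentiles of 99.1, 98.3, 97.5 and 98.8 with shHNRNPU and 90.5 and 92.5 with shLUC. The locus of GPI, a glycolytic enzyme, on chromosome 19 at 34359386, had 98.2, 98.8, 97.5 and 96.6 against 91.8 and 90.8. In scores, TRIM28 was at 75.05, 64.3, 49.1 and 69.9 against 29.0 and 31.5. At both loci the groups did not overlap.

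The locus of BMPR1A, a receptor for bone morphogenetic proteins, on chromosome 10 at 86756436 and 673 bp downstream of the start, had percentiles of 97.7, 98.2, 96.7 and 96.6 against 91.3 and 92.4. Those of ZNF771, a zinc finger gene, and of a locus 4752 bp from NADK, the kinase that makes NADP, and 410 bp from the pseudogene SLC35E2A, had means of 97.2 and 98.7 in the shHNRNPU libraries and 91.9 and 93.6 in shLUC. These 5 were chosen for their gaps, so the gaps are a description. By the same choice, all 5 do not overlap between the groups.

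The 5 widest gaps downward were at DMXL1, PURPL, ACAT1, GPATCH2L and FILIP1. The DMXL1 locus lies inside the gene, 8722 bp from its end, on chromosome 5 at 119079749, and had percentiles of 90.9, 90.5, 93.6 and 93.0 with shHNRNPU and 98.6 and 98.4 with shLUC. The locus at 27472258 of chromosome 5 lies 34 bp from an end of PURPL, a lncRNA gene induced by p53 that lowers p53 levels, and had 91.0, 90.5, 91.5 and 94.4 against 97.0 and 98.6. The locus at ACAT1, a mitochondrial enzyme of ketone and isoleucine metabolism, on chromosome 11 at 108121499, had 92.2, 94.5, 90.5 and 91.0 against 98.6 and 97.4. Of the 5, that at GPATCH2L was within 500 bp of an end of its gene and that at ACAT1 within 500 bp of a listed start, whereas those at DMXL1 and FILIP1 lay inside the genes, whose exons were not used here.

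**Figure D5:**
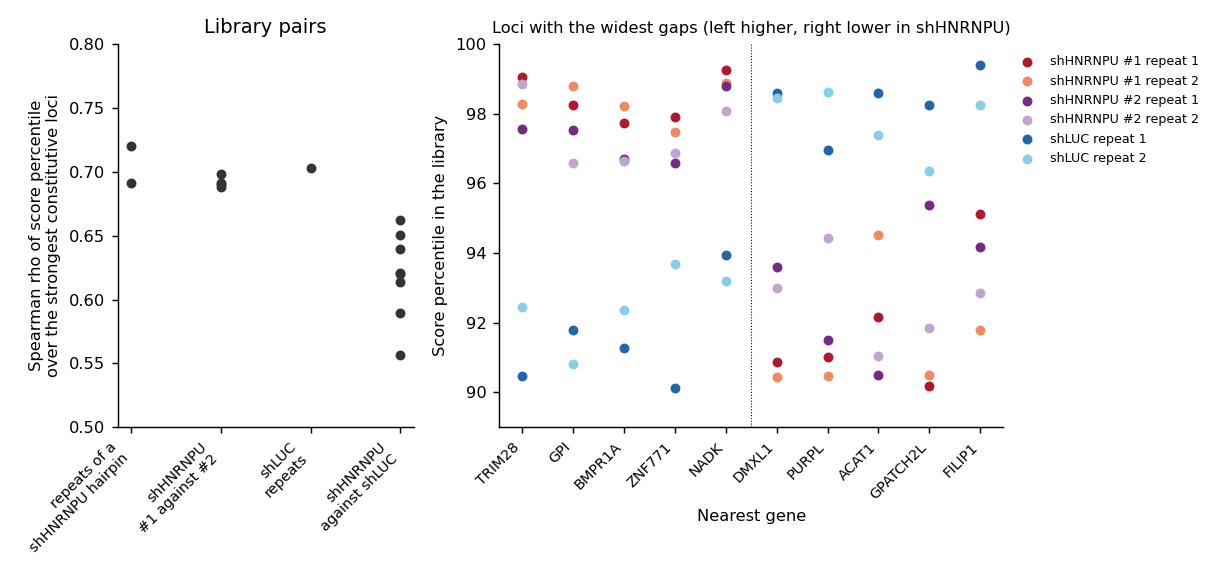
Left, Spearman's rho of score percentile over the 3226 members for each of the 15 pairs of libraries, by kind of pair; the axis runs from 0.5 to 0.8. Right, percentiles in each library at the 5 members with the widest upward and the 5 with the widest downward gaps, on an axis from 89 to 100. The pairs across shHNRNPU and shLUC lie between 0.556 and 0.662, under all pairs on the same side.

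The place of the summit within a member was stable. The range of summit positions over the 6 libraries had a median of 68 bp and was at most 100 bp for 2460 members (76.3%), beside 41.0% of the other loci in all 6 libraries. The mean distance between the summits of a member was 34.4 bp for pairs of libraries on the same side and 35.3 bp for pairs across, a difference of 0.882 bp (one-sided exact permutation test, p = 0.2). At 385 members (11.9%) the summit positions of the 4 shHNRNPU libraries did not overlap those of shLUC, beside 14.1% of all loci in all 6 libraries, so this share is no result about the members.

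The widest shifts of the summit were at LARP7, BZW1, a tRNA gene, FGGY and NAP1L1. At LARP7, whose protein binds the 7SK RNA and whose introns hold the miR-302 cluster of pluripotent cells, the summit lay 67, 67, 64 and -62 bp from the start with shHNRNPU and 301 and 306 bp with shLUC. At FGGY, a carbohydrate kinase gene, it lay at 17, -8, -3 and -8 bp against -202 and -213 bp. At NAP1L1, a histone chaperone gene, it lay at -203, -319, -254 and -163 bp against -79 and -28 bp. The positions do not overlap at these 3 loci, which were chosen for that gap. At BZW1 the gap was carried by one control library, with 239 bp in shLUC repeat 1, 1 bp in shLUC repeat 2 and -200 to -3 bp with shHNRNPU.

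The limit of the set cuts through a continuum. The members just inside it were at PGAP1, MAFA and PYCR3, and the loci just outside at ZNF549, SEC13 and GUCY1B1, all with a lowest percentile that rounds to 90. The library that set the value at PGAP1 was shLUC repeat 1, with a score of 28.2 beside 42.2 to 49.4 with shHNRNPU, and at ZNF549 it was shHNRNPU #2 repeat 1, with 26.5 beside scores up to 54.6 elsewhere. Of the loci outside the set, 928 with a summit in all 6 libraries were in the top 10% of 5.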

How the data were processed

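The authors deposited 1 list of summits per library, each 1 bp wide, with a score that from its values is the −log10 q-value of the peak as MACS2 writes it. Per the submitters' processing notes, cutadapt, Bowtie2, SAMtools, MACS2 and deepTools were used on build hg38; their versions and settings are not given in the sources used here. Peaks were called per library and scores were not normalized between libraries. The number of reads is unknown, so no limit of detection is given.

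Groups and repeat numbers came from the sample titles. The article that accompanies the series describes mouse cells and another gene, and served as a guide to style only. Summits were pooled, taken in order of within-library percentile, and absorbed within 250 bp. Gene ends, classes and biotypes came from the RefSeq table of GRCh38.p14 (20037 protein-coding genes), and starts and sequences from its promoter table, which is not complete. A gene end was near within 2000 bp. Libraries were compared with exact sign-flip and permutation tests over libraries, with a threshold of 0.05. The grouping and the calls without overlap were tested on simulated summits, and the sign-flip test on a fixed set of values. The permutation test over control choices was not tested in this way.

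The members, gene lists, motifs and alternatives were chosen with earlier results of these data known. Named loci were the 12 strongest, the 5 with the widest gap in each direction among those without overlap, 2 genes per class, the 5 farthest from and strongest away from genes, 3 on each side of the limit, and the 5 widest summit shifts; the strongest at starts and between 10 and 300 kb were added after the values were seen. One of the strongest loci at starts is not reported here. Alternatives were a top 5% or 20%, lists of one size, match distances of 100 and 500 bp, autosomes only, a gene-end distance of 500 bp, genes of all classes, ranks among members, leaving out each library, and a replicate block. The tools were matplotlib 3.10.9, scipy 1.17.1, pandas 2.3.3 and numpy 2.4.6 under Python 3.11.15.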

Additional observations from a re-analysis of the deposited data

Results flagged for a closer look

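Among 69 measures examined for 1 of the 4 shHNRNPU libraries standing far from the other 3, 3 did, where chance gives 3.45. The score at the DMXL1 locus was 32.3 to 39.6 with shHNRNPU, and shHNRNPU #2 repeat 2 stood off from the other 3 by 0.83 of that range. At the locus shared by MRPL50, a mitochondrial ribosomal protein gene, and ZNF189, shHNRNPU #1 repeat 1 scored 66.3 beside 80.4 to 81.7 in the other 3, a gap of 0.91 of the range. At the locus shared by PSMA5, a proteasome subunit gene, and SORT1, shHNRNPU #2 repeat 1 scored 51.6 beside 68.8 to 70.6, a gap of 0.904 of the range. Scores are not normalized between libraries.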

How the results depend on the processing

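Of 109 recomputed values, 86 kept their direction and side of 0.05 or, for counts, stayed within 1.5 times, 11 were counts that changed by over 1.5 times, 12 passed to the other side of 0.05, and 0 reversed. The number of members was 1473 with a top 5% and 6744 with a top 20%, by construction. Members higher with shHNRNPU numbered 137 and 694, and lower ones 146 and 855, under these 2 limits. Without one library there were 3329 to 3438 members, with 399 to 792 higher and 501 to 820 lower, since fewer libraries must follow the pattern; the counts were over 1.5 times those reported without shHNRNPU #2 replicate 2 (510 higher) and without shLUC replicate 1 (747 higher and 770 lower) or shLUC replicate 2 (792 and 820). The gene-end difference of members was 54.0 to 54.7 points without one library, and the chromosome 19 difference 2.07 to 2.84 points. With 5 libraries the sign-flip permutation test cannot go below 0.0625, which was its p in each of these 12 cases.

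Under the settings that kept all libraries, the gene-end difference was 49.8 to 57.1 points. The difference of the top 10% lists at gene ends was 5.90 to 8.11 points and remained the highest of the 15 choices. Without one library it was 6.85 to 8.55 points. The difference in rho was 0.0539 to 0.0798, and without one library 0.05 to 0.0941, lowest without shLUC replicate 1. The difference in summit distance was 0.262 to 1.11 bp, and without one library 0.350 to 1.93 bp. The chromosomes that separate the groups numbered 13 to 17, and 15 to 18 without one library.

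With a replicate block, which keeps 1 control choice within each repeat number and so 9 choices in all, the values stay 7.70 points, 0.0784, 0.882 bp and 15 chromosomes, and the smallest two-sided p becomes 0.222; p was 0.222 for the gene-end difference, 0.111 for rho and 0.222 for the summit distance. The labels do not say that repeat numbers mark a shared day or culture, and libraries with one number did not deviate together, with correlations of -0.0438, -0.0138 and 0.00125 between their deviations from the group means over loci in all 6 libraries. Depth is unknown, so absence from a list means only that no summit was called.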
